A study of Mus musculus with 12 samples.

Results

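The genes described are Brca1, Bard1, Rad51ap1, H2ax, Chek1, Chek2, Msh6 and Blm, which act in DNA repair and in the checkpoints that hold the cell cycle when DNA is damaged. They were chosen by name with earlier results of these data known, so their shares of calls are not an unbiased contrast with all probe sets. Every probe set whose annotation gives 1 of these symbols alone was taken. All 8 genes were found on both arrays, of 12393 genes with a probe set of their own on the Affymetrix 430A mouse array and 18193 on the larger 430 2.0 array. They had 17 of 22626 probe sets on 430A and 18 of 45037 on 430 2.0. On 430A Brca1, Rad51ap1 and Chek1 had 4 probe sets each and the other genes 1 each.

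Liver RNA of mice 10 weeks of age was measured in 3 groups. The Double knockout group held livers of Fah, p21 knockout mice that had been off NTBC, on water, for 14 days, with 2 livers on 430A and 2 others on 430 2.0. The Single knockout group held 3 livers of Fah knockout mice off NTBC for the same time, on 430A. The Normal group followed the titles and was a mixture, with 1 wildtype liver after the same 14 days on water (Normal 1), 1 wildtype liver on NTBC (Normal 2), 1 Fah knockout liver on NTBC (Normal 3) and 1 Fah, p21 knockout liver on NTBC (Normal 4). The Single and Double knockout livers off NTBC both lacked Fah, and the Normal group spanned both knockout genotypes on NTBC. Below, livers off NTBC means these knockout livers and not Normal 1. On 430 2.0 the Normal group was 1 Fah, p21 knockout liver on NTBC, whose title also has replicate number 4 and which may be the mouse of Normal 4. Fah encodes the last enzyme of tyrosine breakdown, NTBC inhibits an upstream enzyme of that pathway, so that toxic products do not build up in Fah knockout mice, and p21 is the cyclin-dependent kinase inhibitor encoded by Cdkn1a. The labels used here name no strain, sex or design of the alleles.

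BRCA1 pairs with BARD1 in a ubiquitin ligase that works in the repair of DNA breaks by homologous recombination, RAD51AP1 is an accessory protein that helps strands to pair during recombination, and the BLM helicase takes recombination intermediates apart. MSH6 recognises mismatched bases, H2AX is the histone variant that is phosphorylated around DNA breaks, and CHEK1 and CHEK2 are the kinases that pass the signal of ATR and ATM to the cell cycle machinery. Resting hepatocytes seldom divide, and several of these genes are known to be expressed mainly in the S phase of dividing cells.

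RefSeq promoters (build GRCm38.p6) were found for 7 of the 8 genes, all but H2ax, and their 250 bases upstream of the gene start were read. They were searched on both strands for 4 motifs of cell cycle promoters, 2 forms of the E2F site (TTTCCCGC and TTTGGCGC), the CHR element TTTGAA and the CCAAT box. The promoters of the recombination genes Brca1 and Rad51ap1 and of the kinases Chek1 and Chek2 are shown because the results that follow turn on these 4 genes. Brca1 lies at chr11:101551956-101552205 on the minus strand and Rad51ap1 at chr6:126939588-126939837 on the minus strand. Chek1 lies at chr9:36726659-36726908 on the minus strand and Chek2 at chr5:110839733-110839982 on the plus strand. The sequences run 5′ to 3′ toward the gene start, and capitals mark a motif match, read here as ATTGG or GCGGGAAA where a match lies on the opposite strand.
Brca1: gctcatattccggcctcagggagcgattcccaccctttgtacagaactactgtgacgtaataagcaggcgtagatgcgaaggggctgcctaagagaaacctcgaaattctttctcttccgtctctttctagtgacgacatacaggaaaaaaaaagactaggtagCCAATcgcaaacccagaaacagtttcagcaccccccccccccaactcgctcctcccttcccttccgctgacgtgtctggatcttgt
Rad51ap1: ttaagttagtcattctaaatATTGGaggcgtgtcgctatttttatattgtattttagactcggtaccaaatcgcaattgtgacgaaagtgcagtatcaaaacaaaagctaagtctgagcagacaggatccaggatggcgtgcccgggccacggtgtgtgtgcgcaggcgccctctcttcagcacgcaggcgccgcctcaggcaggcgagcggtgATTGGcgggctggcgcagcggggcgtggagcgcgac
Chek1: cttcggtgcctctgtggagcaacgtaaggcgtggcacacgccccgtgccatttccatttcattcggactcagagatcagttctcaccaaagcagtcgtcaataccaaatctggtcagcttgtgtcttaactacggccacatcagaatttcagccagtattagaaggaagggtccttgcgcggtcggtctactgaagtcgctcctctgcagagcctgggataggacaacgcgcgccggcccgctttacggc
Chek2: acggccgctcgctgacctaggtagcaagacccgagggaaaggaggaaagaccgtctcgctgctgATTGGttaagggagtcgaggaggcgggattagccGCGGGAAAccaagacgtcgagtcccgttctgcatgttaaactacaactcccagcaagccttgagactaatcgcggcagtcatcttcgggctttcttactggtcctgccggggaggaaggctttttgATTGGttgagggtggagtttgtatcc

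CCAAT was found in 5 of the 7 promoters (Brca1, Rad51ap1, Chek2, Msh6 and Blm), against 33.8% of all 32851 promoters of the same length. TTTCCCGC was found in 2 of 7 (Bard1 and Chek2), against 0.895% of all promoters, and TTTGGCGC in 0 of 7, against 0.417%. TTTGAA was found in 1 of 7 (Bard1), against 16% of all promoters. In the Brca1 promoter the CCAAT match began 86 bases before the start, and in the Rad51ap1 promoter its matches began 230 and 36 bases before it. The Chek2 promoter held CCAAT matches 186 and 26 bases before the start and the E2F match between them at 152, while the Chek1 window held none of the 4. No match overlapped another. A match is a run of letters and not a binding site, and a window without one says nothing about the factor.

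**Figure D1:**
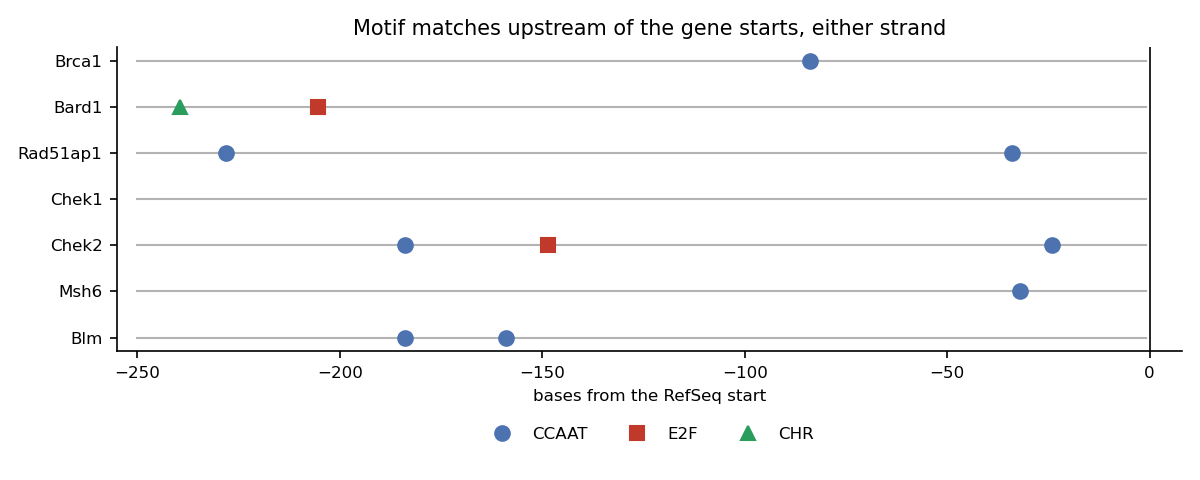
Positions of motif matches in the 250 bases upstream of the RefSeq gene start of 7 genes, in bases from the start (x axis), with circles for CCAAT, squares for E2F and triangles for CHR matches on either strand. Chek2 holds 2 CCAAT matches around its E2F match, and Chek1 holds none.

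The values are MAS5 signals, a brightness per probe set on a linear scale, scaled by the authors to a common level on each array. For tests they were taken to log2(signal + 9.9) on 430A and log2(signal + 3.8) on 430 2.0, so the changes given as log2 differences ± SE are understated where signals are low. Fold changes were computed from these differences, include the offset and are understated in the same way. A probe set was tested if it reached its array's 40th percentile, a signal of 73.8 to 100.1 on 430A and 32.3 to 37.8 on 430 2.0, on at least 2 arrays. All 15307 tested probe sets of 430A entered 1 limma fit, and a probe set passed at a Benjamini-Hochberg adjusted p under 0.05 over all of them. Of the 17 probe sets of these genes 9 were tested, covering 7 genes, and 8 were not. Of the 9, 4 reached the 40th percentile in no Normal liver (2 of Brca1, 1 each of Rad51ap1 and Chek1), and 2 of those reached it in Double knockout livers alone (Rad51ap1 and Chek1). Such probe sets had to be higher in knockout livers off NTBC to be tested at all, so their number is not a measure of how the genes responded. In bulk liver RNA, fewer cells of a type and less RNA per cell cannot be told apart.

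The labels were checked on the targeted genes. Fah signal was 105.3 and 114.2 in Double knockout livers, 100.8 to 113.5 in Single knockout livers, 181.9 and 233 in the Normal livers of knockout genotype, and 6868.1 and 7120.1 in the wildtype livers. The Cdkn1a probe set 1421679_a_at was at 9.5 and 8.2 in Double knockout livers, at 989.5 to 1861.5 in Single knockout livers and at 14.7 to 51.4 in Normal livers, while 1424638_at was at 1827.6 and 2059.6 in Double knockout livers, 2814 to 3935.7 in Single knockout livers and 75.2 to 257.7 in Normal livers. The labels used here do not place these probe sets inside or outside the deleted part. The hepatocyte markers Alb, Ttr and Apoa1 were the brightest of the marker lists on each array, so the tissue label and the defining markers went together. The titles call the arrays biological replicates, and their number limits the precision of every value below.

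Off NTBC, Brca1 was higher in both genotypes by 1424629_at and 1451417_at but not by 1427698_at. Chek1 was higher in both by 1 of its probe sets. Rad51ap1, H2ax, Msh6 and Blm passed the test in the Double knockout livers, though the Blm call ended in 12 of 20 alternative settings. Brca1 1424629_at rose 5.79-fold in Double knockout and 5.1-fold in Single knockout livers against Normal. In Double knockout livers Rad51ap1 1448899_s_at rose 4.03-fold and H2ax 3.21-fold. Chek2 did not pass in either genotype, and Bard1 lay below the 40th percentile on every array. In Double knockout against Normal livers 7 of the 9 tested probe sets passed, all higher, where 28.4% of all tested probe sets passed in either direction and 17.7% passed as higher. Of the 5 tested probe sets that did not need the livers off NTBC to be tested, 3 were among these 7. In Single knockout against Normal livers 3 of 9 passed, all higher, where 35.5% of all tested probe sets passed and 20.1% passed as higher. All 3 were among the 4 that reached the 40th percentile in no Normal liver, and of the other 5 probe sets 0 passed with limma and 0 had an unadjusted p under 0.05. Over all 17 probe sets, tested or not, every Double knockout signal exceeded every Normal signal for 11, where 23.9% of all probe sets did so, and every Single knockout signal exceeded every Normal signal for 7, where 17.8% did so. Among these 7 was Rad51ap1 1417939_at, whose signals were at most 1.4 in Single knockout and 1.2 in Normal livers, below the offset. Both comparisons use the same Normal livers.

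**Figure D2:**
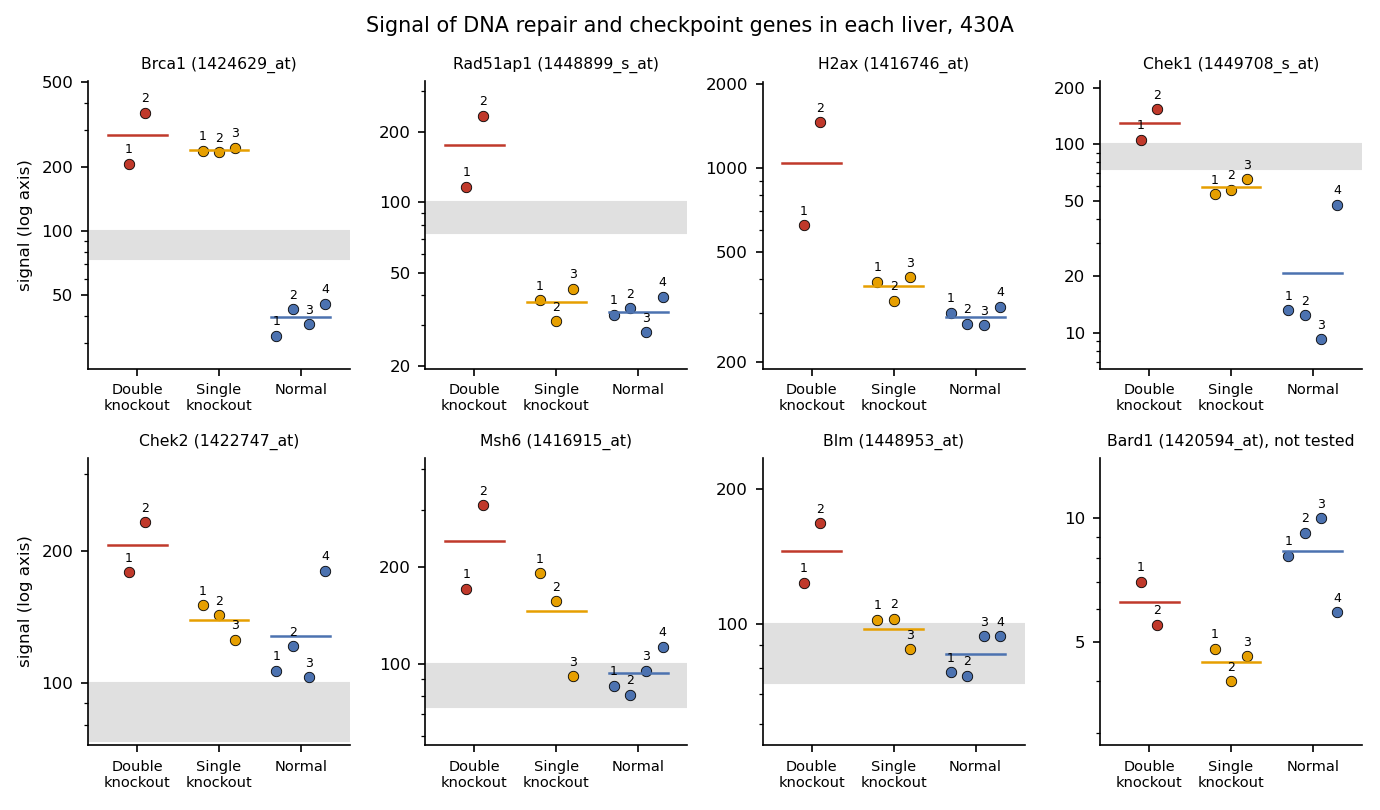
Signal (y axis, log scale) of 1 probe set per gene in each liver on 430A, with the replicate number beside each point, a line at the group's mean, and a grey band over the arrays' 40th percentiles. Brca1 lies at 208 to 361 in the Double and Single knockout livers and at 32.4 to 45.7 in Normal livers, while Rad51ap1 lies at 116.5 and 235.1 in Double knockout livers and at 27.8 to 42.7 in the others.

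Brca1 was read by its probe set 1424629_at at 208 and 361 in Double knockout livers, at 238.8, 235.6 and 246.7 in Single knockout livers, and at 32.4, 43.2, 36.6 and 45.7 in Normal livers. Each Double and Single knockout liver exceeded each Normal liver, and the Single knockout livers lay between both Double knockout livers. The log2 difference was 2.53 ± 0.24 for Double knockout and 2.35 ± 0.21 for Single knockout against Normal (limma adjusted p = 3.2e-05 and 1.13e-05). Between Double and Single knockout it was 0.18 ± 0.25 (95% interval -0.37 to 0.74, adjusted p = 0.873), which did not pass.

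The other Brca1 probe sets did not all follow. The signal of 1451417_at was 121 and 184.2 in Double knockout livers, 127.3, 173.8 and 86.1 in Single knockout livers, and 22.1, 6.1, 28.8 and 53.3 in Normal livers. It also rose in both comparisons with Normal, by 2.25 ± 0.49 in Double knockout and 2.00 ± 0.43 in Single knockout livers (adjusted p = 0.00543 and 0.00391). The Double knockout call of 1451417_at ended without Double knockout 2 (1.97, adjusted p = 0.0707) and against Normal 4 alone (1.33, adjusted p = 0.138), while that of 1424629_at held in both settings (2.15 and 2.35, adjusted p = 0.000882 and 0.00305). The dim 1424630_a_at, which was not tested, was at 46.1 and 98.1 in Double knockout livers, at 46.6 to 72.2 in Single knockout livers and at 0.9 to 3 in Normal livers, without overlap of either knockout group with Normal livers. In contrast 1427698_at was at 131.9 and 94.7 in Double knockout livers, at 94.1 to 116.4 in Single knockout livers and at 75.8 to 121.2 in Normal livers, and the groups overlapped. Its difference was 0.21 ± 0.24 in Double knockout and 0.10 ± 0.21 in Single knockout livers (adjusted p = 0.561 and 0.753). Which part of the transcript each probe set covers was not examined.

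**Figure D3:**
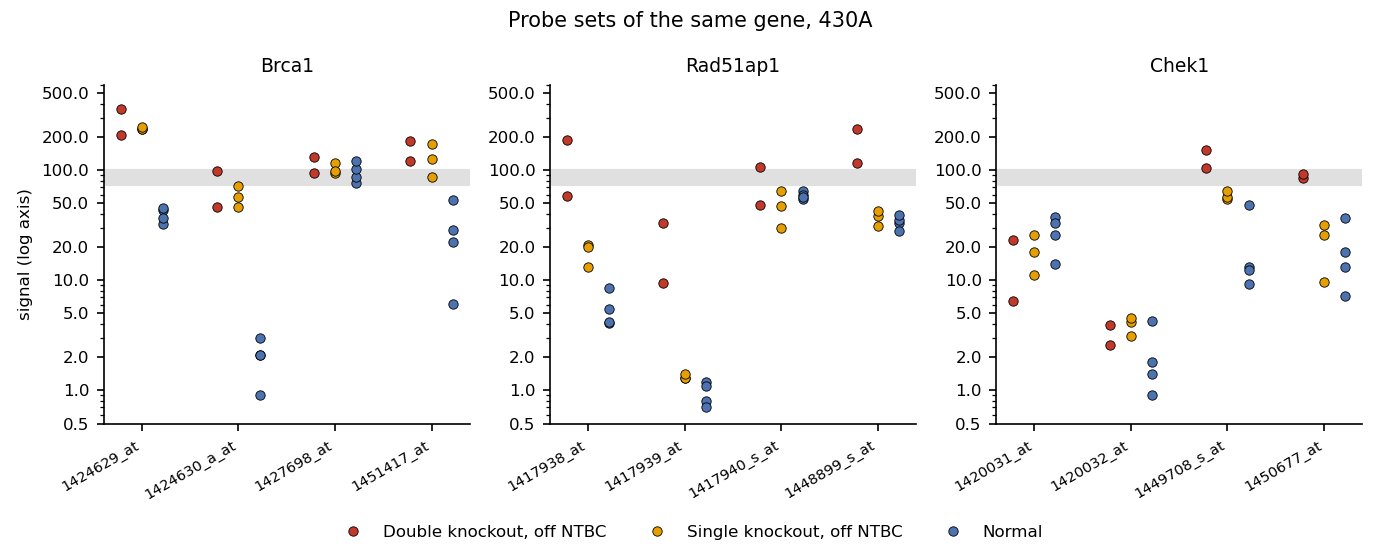
Signals (y axis, log scale) of the 4 probe sets each of Brca1, Rad51ap1 and Chek1 on 430A, 1 point per liver, with Double knockout left of Single knockout and Normal, and a grey band over the arrays' 40th percentiles. Probe sets of 1 gene differ in whether the groups separate, as Brca1 1427698_at, where all groups overlap, shows beside 1424629_at.

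Rad51ap1 1448899_s_at was at 116.5 and 235.1 in Double knockout livers, at 38.2, 31 and 42.7 in Single knockout livers, and at 33.1, 35.3, 27.8 and 39.5 in Normal livers. Both Double knockout livers were above all others, and the Single knockout and Normal livers overlapped. The difference against Normal was 2.01 ± 0.35 in Double knockout livers (adjusted p = 0.00147) and 0.11 ± 0.31 in Single knockout livers (adjusted p = 0.818). The dimmer 1417938_at and 1417939_at were not tested, and in these the Double knockout livers were also above all others, while the Single knockout livers lay above the Normal livers. The signal of 1417938_at was 58.7 and 189.2 in Double knockout livers, 13.3 to 21 in Single knockout livers and 4.1 to 8.6 in Normal livers, and that of 1417939_at was 9.4 and 33.2 in Double knockout livers, 1.3 to 1.4 in Single knockout livers and 0.7 to 1.2 in Normal livers. The last, 1417940_s_at, did not separate the groups, with 48.5 and 106.5 in Double knockout livers, 30.1 to 65.2 in Single knockout livers and 54.5 to 64.8 in Normal livers.

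Bard1, the partner of Brca1 in its ligase, had a signal of 7 and 5.5 in Double knockout livers, 4.8, 4 and 4.6 in Single knockout livers, and 8.1, 9.2, 10 and 5.9 in Normal livers. The Single knockout signals all lay below the Normal signals. All of these signals are near or below the offset of 9.9 added before the logarithm, so no change of Bard1 could be measured. Blm was at 123.8 and 167.9 in Double knockout livers, at 102.4, 102.8 and 88 in Single knockout livers, and at 78.2, 76.8, 94.1 and 94.1 in Normal livers. The Double knockout livers were above all others, and the difference against Normal was 0.69 ± 0.22 (adjusted p = 0.0334). That call ended in 12 of 20 alternative settings, among them quantile normalization (0.47, adjusted p = 0.0908) and no filter on low signals (adjusted p = 0.0541). Without Double knockout 2 the difference was 0.49. In Single knockout livers the Blm difference was 0.17 ± 0.19 (adjusted p = 0.52).

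Msh6 was at 171.1 and 310 in Double knockout livers, at 191.5, 156.3 and 91.7 in Single knockout livers, and at 85.8, 80.4, 95.5 and 113.3 in Normal livers. The Double knockout livers did not overlap with the Normal livers, while Single knockout 3 lay among the Normal livers. The difference was 1.23 ± 0.30 in Double knockout livers (adjusted p = 0.0117) and 0.55 ± 0.27 in Single knockout livers (adjusted p = 0.139). Without Single knockout 3 the Single knockout difference was 0.83 and passed (adjusted p = 0.0305), and without Double knockout 2 the Double knockout difference was 0.82 and did not (adjusted p = 0.165), nor did it against Normal 4 alone (0.97, adjusted p = 0.18).

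H2ax was at 622.6 and 1463.4 in Double knockout livers, at 389.7, 333.7 and 404.8 in Single knockout livers, and at 302, 275.4, 271.5 and 317.2 in Normal livers. The 3 groups did not overlap, and the Double knockout livers stood furthest from each other. The difference was 1.68 ± 0.27 in Double knockout livers (adjusted p = 0.000915) and 0.35 ± 0.24 in Single knockout livers (adjusted p = 0.273). Without Double knockout 2 the first of these was 1.07 (adjusted p = 0.00597), and against Normal 4 alone it was 1.56 (adjusted p = 0.0343). The size rested on which Double knockout liver was used, being 2.29 without Double knockout 1.

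Chek1, the kinase that ATR activates, was read by 1449708_s_at at 105.6 and 153.8 in Double knockout livers, at 54.2, 57.4 and 65.3 in Single knockout livers, and at 13.1, 12.4, 9.2 and 47.8 in Normal livers. The groups did not overlap, but Normal 4, the Fah, p21 knockout liver on NTBC, was close to the Single knockout livers. The difference was 2.33 ± 0.47 in Double knockout livers and 1.33 ± 0.41 in Single knockout livers (adjusted p = 0.00359 and 0.0271). Against Normal 4 alone the Double knockout difference was 1.25 (adjusted p = 0.105), and the Single knockout call ended without any 1 of Normal 1, Normal 2, Normal 3 or the Single knockout livers, with adjusted p between 0.0533 and 0.0782. A second probe set, 1450677_at, which was not tested, was at 85.8 and 93.3 in Double knockout livers, at 31.9, 9.7 and 25.7 in Single knockout livers, and at 18, 36.5, 13.1 and 7.2 in Normal livers. There the Double knockout livers stood alone and the other groups overlapped. The remaining 2 probe sets of Chek1 stayed at or below 37.2 on every array.

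Chek2, the kinase that ATM activates, was at 178.8 and 232.5 in Double knockout livers, at 150.1, 142.5 and 125.5 in Single knockout livers, and at 106.7, 121.2, 103.1 and 180.3 in Normal livers. Normal 4 was above Double knockout 1, so the groups overlapped. The difference was 0.67 ± 0.24 in Double knockout livers (adjusted p = 0.0555) and 0.15 ± 0.21 in Single knockout livers (adjusted p = 0.626), and neither passed. Without Normal 4 the Double knockout difference was 0.83 and passed (adjusted p = 0.00939), and so it did against the wildtype livers alone (0.79, adjusted p = 0.0192). Only 3 of 20 alternative settings departed from the main result, and over all 20 the difference ran from 0.17 to 0.85.

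**Figure D4:**
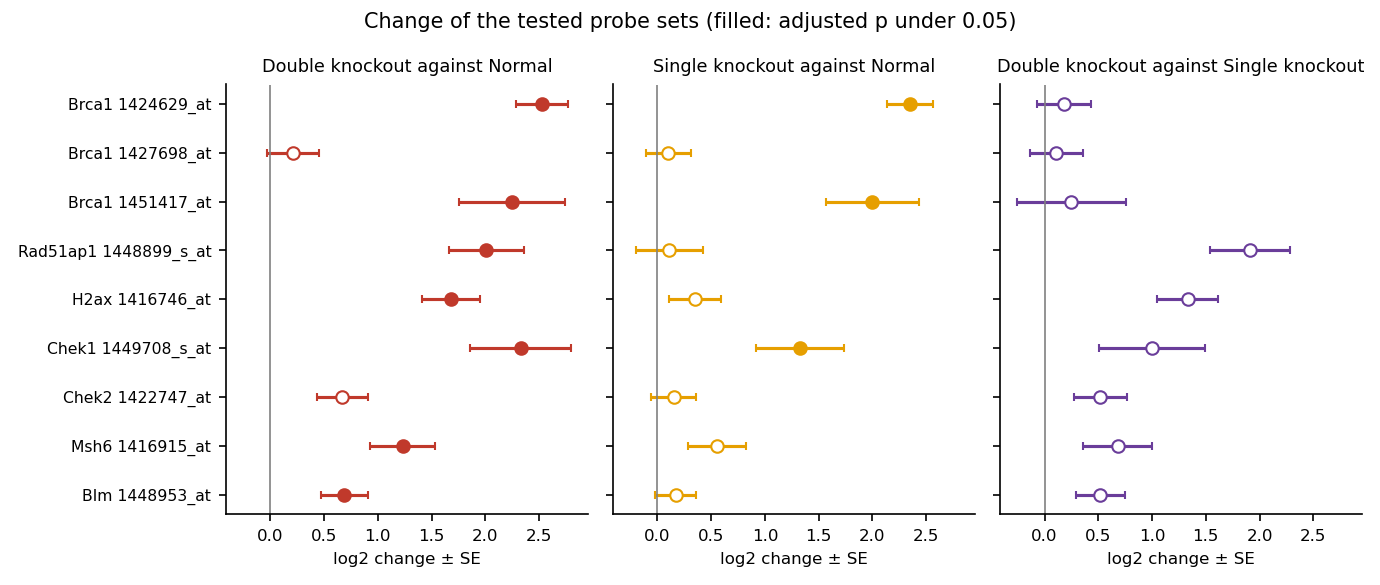
Log2 difference ± SE (x axis) of the 9 tested probe sets on 430A for Double knockout against Normal, Single knockout against Normal and Double knockout against Single knockout, with filled points at a limma adjusted p under 0.05. Brca1 1424629_at differs from Normal by 2.53 and 2.35 in the genotypes off NTBC, and no point is filled between the genotypes.

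What the loss of p21 added was read between the groups off NTBC. In Double knockout against Single knockout livers 0 of 9 probe sets passed with limma, where 0.0392% of all tested probe sets did (6 of 15307), and 3 of 9 had an unadjusted p under 0.05, where 8.06% of all did. These were Rad51ap1 1448899_s_at with 1.91 ± 0.37, H2ax with 1.33 ± 0.28 and Blm with 0.52 ± 0.23 (limma adjusted p = 0.104, 0.159 and 0.59). Rad51ap1 1448899_s_at reached the 40th percentile in Double knockout livers alone and so had to be higher there to be tested, as had Chek1 1449708_s_at, and of the other 7 probe sets 2 had an unadjusted p under 0.05. The 95% intervals of Rad51ap1, H2ax and Blm were 1.10 to 2.71, 0.70 to 1.95 and 0.02 to 1.02. Over all 17 probe sets every Double knockout signal exceeded every Single knockout signal for 9, where 17.3% of all probe sets did so. The interval for Chek1 1449708_s_at ran between -0.08 and 2.08, that for Msh6 between -0.03 and 1.39, and that for Chek2 between -0.02 and 1.07. A difference between the genotypes' responses to withdrawal was tested as an interaction over 5 groups, in which each knockout genotype had 1 liver on NTBC. With limma 0 of 9 probe sets passed, where 0% of all tested probe sets did, and 0 of 9 had an unadjusted p under 0.05, where 5.67% of all did. The largest of the 9 values were 1.52 ± 0.67 for Rad51ap1 1448899_s_at and 1.11 ± 0.56 for H2ax (limma adjusted p = 0.885 and 0.934).

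Both Double knockout livers of 430A differed from each other across these genes. Double knockout 2 exceeded Double knockout 1 for 8 of the 9 tested probe sets, by 0.36 to 1.22 on the log2 scale, while over all tested probe sets the median was -0.02 and the 5th and 95th percentiles were -0.63 and 0.69. H2ax differed by 1.22, Rad51ap1 1448899_s_at by 0.95 and Msh6 by 0.82, and Brca1 1427698_at by -0.44. The proliferation genes moved with this difference. Their summed signal over 21 genes was 6388 in Double knockout 1 and 16484 in Double knockout 2, 2335 to 2793 in Single knockout livers and 1808 to 2225 in Normal livers. The mitotic kinase gene Cdk1, for example, was at 549 in Double knockout 1 and at 1616.5 in Double knockout 2, at 30.4 to 84.8 in Single knockout livers and at 20.4 to 38.2 in Normal livers. The part of proliferating cells in the changes of the repair genes was not tested. Without Double knockout 2, 2 of the 7 probe sets then tested passed against Normal, and without Double knockout 1, 4 of 7, while over all probe sets 2563 and 2477 passed, against 4353 with both. Rad51ap1 1448899_s_at and Chek1 1449708_s_at were not tested in those settings, since a single Double knockout liver could not carry them over the filter.

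The genes of other repair pathways were counted from lists, 1 representative probe set per gene, beside all 9195 tested genes, of which 17.8% were higher and 11.5% lower in Double knockout against Normal livers, with a median difference of 0.09. Of 16 tested checkpoint signalling genes 7 rose, 1 fell and 8 did not pass, with median 0.54. Topbp1, the activator of ATR, was at 351.3 and 629.4 in Double knockout livers, 107.6 to 233.9 in Single knockout livers and 58 to 128.1 in Normal livers, and rose by 2.34 ± 0.35 (adjusted p = 0.000555). The phosphatase gene Cdc25a rose by 1.31 ± 0.21 and Wee1, the kinase that holds CDK1 inactive, by 1.24 ± 0.26 (adjusted p = 0.00097 and 0.0044). Of 12 homologous recombination genes other than those described above, 2 rose, 0 fell and 10 did not pass, with median 0.41. Rad51c, a recombination gene, was at 143.7 and 167.7 in Double knockout livers, at 115.6, 114.5 and 99.1 in Single knockout livers, and at 12.1, 16, 32.1 and 31 in Normal livers. Like Brca1 1424629_at it was higher in both knockout groups off NTBC, though no Normal liver reached the 40th percentile, by 2.39 ± 0.33 in Double knockout and 1.92 ± 0.29 in Single knockout livers (adjusted p = 0.000393 and 0.000463).

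Of 7 mismatch repair genes beside Msh6, 2 rose and 1 fell in Double knockout livers, with median 0.51. The replication clamp gene Pcna rose by 1.84 ± 0.19 and the ligase gene Lig1 by 0.77 ± 0.20, while Msh3, which also acts in mismatch recognition, fell by 0.84 ± 0.26 (adjusted p = 6.36e-05, 0.0155 and 0.0325). Of 8 Fanconi anaemia genes 2 rose and 1 fell (median -0.03), of 23 base and nucleotide excision repair genes 2 rose and 3 fell (median 0.13), and of 6 end joining genes and 4 RecQ helicase genes 0 passed with limma (medians 0.15 and -0.03), and 0 and 1 had an unadjusted p under 0.05. In Single knockout livers, where 19.7% of all genes were higher and 16.5% lower, 4 of 16 checkpoint genes rose and 2 fell, 2 of 12 recombination genes rose and 2 fell, 1 of 7 mismatch repair genes rose and 1 fell, 0 of 8 Fanconi anaemia genes rose and 3 fell, and 3 of 23 excision repair genes rose and 5 fell. Of 12 tested p53 targets with a role in repair 5 rose in Double knockout and 6 in Single knockout livers and 0 fell, though 1 was lower in both after quantile normalization. Gadd45a, a p53 target, was at 138.4 and 104.1 in Double knockout livers, 182.4 to 250.5 in Single knockout livers and 1.8 to 50.9 in Normal livers. It reached the 40th percentile in no Normal liver. Of the 11 p53 targets that did, 4 rose in Double knockout and 5 in Single knockout livers. Of 5 tested histone genes 2 rose in Double knockout livers, and 2 rose and 1 fell in Single knockout livers. Of 19 tested proliferation genes 18 rose in Double knockout livers, with median 2.31, against 3 that rose and 1 that fell in Single knockout livers, with median 0.29. Of these 19, 9 reached the 40th percentile in no Normal liver, and of the other 10, 9 rose in Double knockout and 1 in Single knockout livers. After quantile normalization or scaling to a common median the Double knockout counts were 4 higher and 2 lower for checkpoint genes, 1 and 1 for recombination genes, and 17 and 1 for proliferation genes. For Fanconi anaemia genes they were 2 higher and 3 lower after quantile normalization, and 1 higher and 3 lower with scaling to a common median. Without Double knockout 2, 9 of 12 proliferation genes rose, and 3 of 16 checkpoint genes rose.

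Scaling to a common median moved the median difference of all tested probe sets in Double knockout against Normal by -0.23, and quantile normalization moved it by -0.13. Under the first, Brca1 1424629_at differed by 2.31, Chek1 1449708_s_at by 2.13, Rad51ap1 1448899_s_at by 1.80, H2ax by 1.44, Msh6 by 1.00 and Blm by 0.47, and of these Blm alone no longer passed. Under that scaling 1626 probe sets were higher and 2507 lower over the whole array, against 2716 higher and 1637 lower without it.

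Markers of other cell types also differed. Over 6 macrophage genes the summed signal was 7082 to 7415 in Double knockout livers, 5174 to 6441 in Single knockout livers and 3507 to 5087 in Normal livers, with 4 of 6 higher in Double knockout and 3 of 6 in Single knockout livers. Over 6 stellate cell genes it was 6748 to 7456 in Double knockout, 4362 to 6184 in Single knockout and 2735 to 3608 in Normal livers, with 4 of 6 higher in Double knockout and 2 of 6 in Single knockout livers. Over 6 lymphocyte genes it was 847 to 926 in Double knockout, 602 to 812 in Single knockout and 457 to 694 in Normal livers, and of the 4 tested 2 were higher in Double knockout and 1 in Single knockout livers, though 0 of 4 in Double knockout livers after quantile normalization. The genes higher in Double knockout livers were Ptprc and Ighm, and Ighm alone was higher in Single knockout livers. These 3 cell types' sums on 430A thus ran higher in each Double knockout liver than in any Normal liver. On 430 2.0 the lymphocyte sum was 1812 and 1104 in Double knockout livers against 1524 in the Normal liver. On that array Ighm, read by a different probe set than on 430A, was lower, at 129.1 and 96.4 against 500. Ptprc was at 1548.1 and 906.1 against 899.2, and Cd79b at 61.4 and 57.4 against 4.4. There the macrophage sum was 17739 and 13739 against 10180, and the stellate cell sum 16495 and 15895 against 6754. Over 4 cholangiocyte genes the sum was 229 to 333 in Double knockout, 206 to 258 in Single knockout and 71 to 154 in Normal livers. Both tested genes were higher in both comparisons, but neither reached the 40th percentile in any Normal liver. They had to be higher in livers off NTBC to be tested at all. Over 5 neutrophil genes it was 377 to 487 in Double knockout, 320 to 443 in Single knockout and 334 to 821 in Normal livers, and 0 of 2 tested genes passed with limma in either comparison, nor did any at an unadjusted p under 0.05. Over 4 erythroid genes it was 974 to 2914 in Double knockout, 759 to 1903 in Single knockout and 1492 to 2665 in Normal livers, with 1 of 2 higher and 1 lower in both comparisons. The 3 hepatocyte markers summed to 36688 to 39094 in Double knockout, 39732 to 43420 in Single knockout and 55360 to 57919 in Normal livers. On 430A 3 of 3 were lower in both comparisons, though 0 of 3 passed after quantile normalization. On 430 2.0 they summed to 68246 and 71838 in Double knockout livers against 74270 in the Normal liver, and 0 of 3 passed. No marker was at 0 on every array, and Cd3g, Camp, S100a8, Hba-a1, Slc4a1, Krt19 and Krt7 were below the 40th percentile on every array of 430A. The part of cell composition in the changes of the repair genes was not tested.

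The 430 2.0 array gave the same comparison in 2 further Double knockout livers against 1 Normal liver, with 1 residual degree of freedom and the Normal liver assumed to vary like the others. Of 18 probe sets 13 were tested, 6 of which reached the 40th percentile in Double knockout livers alone, and 10 of 13 passed, all higher, where 11.5% of all 26925 tested probe sets passed and 7.71% passed as higher. The 6 that reached it in Double knockout livers alone were among the 10, and of the other 7 probe sets 4 passed (Brca1 1424629_at, H2ax and 2 of Chek1). With 1 Normal liver, any probe set had to reach the percentile in at least 1 Double knockout liver to be tested. That held for these 7 as well, so their count also depends on the filter. Both Double knockout signals exceeded the Normal signal for 15 of 18, where 37.9% of all probe sets did so. Brca1 1424629_at was at 892.9 and 516.9 in Double knockout livers and at 58.2 in the Normal liver, a difference of 3.46 ± 0.39, or 11-fold (adjusted p = 0.0023). Rad51ap1 1417938_at, not tested on 430A, was at 373.6 and 393.1 against 13.9 in the Normal liver, 21.9-fold higher (4.45 ± 0.36, adjusted p = 0.000765). All 4 Rad51ap1 probe sets passed here, but each reached the 40th percentile in Double knockout livers alone, and without the filter 1417939_at and 1417940_s_at did not pass (adjusted p = 0.109 and 0.119). Of these 1417940_s_at was at 95.3 and 108 in Double knockout livers against 15.2 in the Normal liver (2.47 ± 0.52, adjusted p = 0.0264).

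H2ax was at 2073 and 2360.8 in Double knockout livers and at 491.5 in the Normal liver (2.16 ± 0.24, adjusted p = 0.00226). Chek1 1449708_s_at was at 396.2 and 439.3 against 76 in the Normal liver (2.40 ± 0.31, adjusted p = 0.00412), and 1450677_at at 247.4 and 350.5 against 34.8 (2.95 ± 0.39, adjusted p = 0.00439). Msh6, Blm and Chek2 did not pass on this array. Msh6 was at 574.5 and 527.4 in Double knockout livers against 269.8 in the Normal liver (1.02 ± 0.27, adjusted p = 0.0567), Blm at 261.2 and 209.5 against 109 (1.08 ± 0.34, adjusted p = 0.0972), and Chek2 at 180.1 and 194.8 against 116.2 (0.67 ± 0.34, adjusted p = 0.275). Brca1 1427698_at was again apart from the other Brca1 probe sets, at 33 and 28.9 in Double knockout livers and at 51.6 in the Normal liver, and was not tested. Bard1 was at 20.2 and 4.8 in Double knockout livers against 23.2 in the Normal liver, below the 40th percentile on each array. The proliferation sum was 23812 and 24766 in these Double knockout livers and 3674 in the Normal liver. From the other lists, the recombination genes Rad54l, Eme1 and Rad54b rose by 4.03 ± 0.53, 3.93 ± 0.55 and 3.79 ± 0.58 (adjusted p = 0.0044, 0.00586 and 0.00813), and 4 of 20 recombination genes and 8 of 23 checkpoint genes rose, where 9.11% of all genes were higher. The 4 recombination genes that rose did not reach the 40th percentile in the Normal liver and so had to be higher to be tested, and of the other 16 0 rose with limma and 3 had an unadjusted p under 0.05. Those 16 also had to reach the percentile in a Double knockout liver to be tested.

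**Figure D5:**
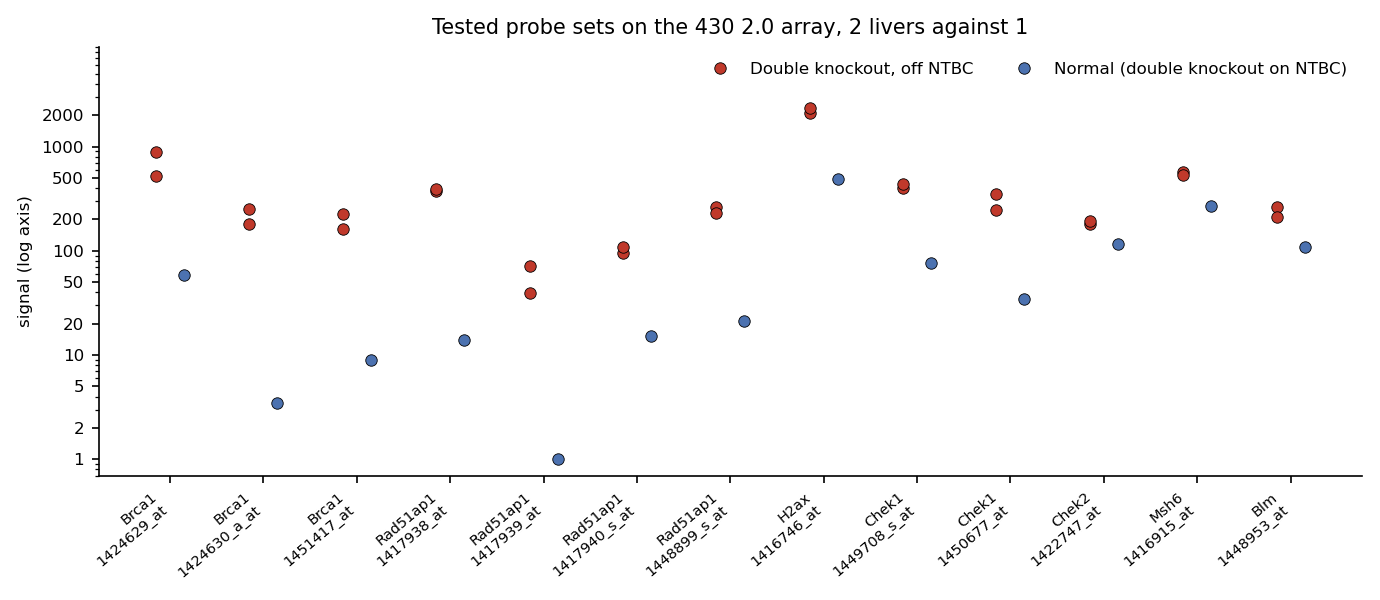
Signals (y axis, log scale) of the 13 tested probe sets on 430 2.0, with 2 Double knockout livers off NTBC left of the Normal liver, a Fah, p21 knockout on NTBC. Both Double knockout livers lie above the Normal liver at each probe set, by least at Chek2, with 180.1 and 194.8 against 116.2.

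The genes most like each of these across the 9 livers of 430A were found by the Pearson correlation of log2 signal among 9048 tested genes, as a description over arrays that share the same groups. Brca1 1424629_at was nearest to Bicc1 (r = 0.997) and Mapk13 (0.994). H2ax was nearest to the condensin gene Smc4 (0.982) and the spindle gene Tpx2 (0.975), and Blm to the spindle checkpoint gene Mad2l1 (0.992) and Lig1 (0.985). Chek1 1449708_s_at was nearest to Csrp1 (0.987) and Ikbip (0.984), Chek2 to Hes1 (0.956) and the condensin gene Ncaph (0.939), and Msh6 to Mtnr1a and Mlec (0.977 each). For Rad51ap1 the probe set 1448899_s_at was used after its values were seen, since the brightest one was not tested, and its nearest genes were the replication helicase gene Mcm7 (0.985) and the topoisomerase gene Top2a (0.972).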

How the data were processed

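Liver RNA of 12 samples was measured on Affymetrix arrays, 9 on 430A and 3 on 430 2.0. The authors deposited 1 intensity signal for each probe set on each array, and the submitters' processing notes name GCOS 1.4.0.036 and MAS5. Offsets at the 10th percentile of all signals (9.9 and 3.8) were added before log2, 64 control probe sets per design were left out, and 15307 and 26925 probe sets passed the filter. Tests used limma 3.58.1 in R 4.3.3 (lmFit, eBayes with the intensity trend) within each design, since the designs were scaled apart. The 3-group fit had 6 residual and 5.01 prior degrees of freedom, the interaction fit over 5 groups 4 and 4.76, and the 430 2.0 fit 1 and 6.04. On simulated data the fit was tested before use.

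Symbols came from GEO's platform annotation, with 20380 probe sets of 430A and 34945 of 430 2.0 carrying 1 symbol, 691 and 932 several and 1555 and 9160 none. Of these, 20351 and 34741 matched the GRCm38.p6 gene table by Entrez identifier, and that table gave names only. Where a list needed 1 value per gene, the brightest probe set by mean log2 signal stood for it. Named were the 8 genes by every probe set, Fah and Cdkn1a, up to 3 genes per list that passed with the largest changes, and the 2 most correlated genes for each. The correlations of Rad51ap1 1448899_s_at were added after the values were seen. The members and lists were chosen with earlier results of these data known. No pair among 36 pairs of 430A arrays shared over 0.407% identical signals. Same-numbered arrays of different groups did not deviate together (correlations of -0.28 to 0.07), so replicate numbers were not used as pairs. Alternatives were other filters, offsets, scalings, variance models and controls, and leaving out each array. No scan date was among the labels, so none was used as a batch. Plots came from matplotlib 3.10.9 (Python 3.11.15).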

Additional observations from a re-analysis of the deposited data

Results flagged for a closer look

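Chek1 1449708_s_at was at 47.8 in Normal 4, the Fah, p21 knockout liver on NTBC, while the other 3 Normal livers were at 9.2 to 13.1. Its gap to the nearest of them was 0.832 of the group's range on the log2 scale, just past Dixon's 95% critical value for 4 samples. Chance alone marks about 1 in 20 such groups, and 17 probe sets were examined. The other probe set of Chek1 that separated the Double knockout livers, 1450677_at, was lowest in Normal 4, at 7.2 against 13.1 to 36.5. On 430 2.0 the Normal liver of the same genotype was at 76 for 1449708_s_at and at 34.8 for 1450677_at.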

How the results depend on the processing

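Of 766 alternative values 718 kept direction and side of the threshold, and 26 lost and 7 gained the threshold. Another 14 changed direction, and no called value was among them. The remaining 1 was classed apart from these. With a filter at the 60th percentile only 2 of these probe sets were tested, of which 2 passed for Double knockout and 1 for Single knockout against Normal. With the genotype-matched liver on NTBC alone as control, 3 passed for Double knockout. Without the intensity trend 1 passed between Double and Single knockout (Rad51ap1 1448899_s_at, adjusted p = 0.0418). Leaving out 1 array gave 2 to 8 for Double knockout against Normal (2 without Double knockout 2, 4 without Double knockout 1, 8 without Normal 4), 2 to 3 for Single knockout against Normal, and 0 to 1 between Double and Single knockout (1 without Double knockout 1, H2ax at 1.94, adjusted p = 0.00554). Of Brca1 1427698_at, never called, the Double knockout against Normal difference was -0.002 after quantile normalization, -0.01 with median scaling and -0.11 with the matched control, and -0.01 to 0.43 with 1 array left out. Its Double against Single knockout difference was -0.05 and -0.04 under these scalings and -0.11 to 0.33 with 1 array left out, its Single knockout against Normal difference was -0.003 with the matched control, and its interaction was -0.32 to 0.12 with 1 array left out. The Double against Single knockout difference ranged over -0.20 to 0.57 for Brca1 1424629_at and -0.04 to 0.53 for 1451417_at with 1 array left out. The interaction of 1424629_at was 0.01 with the 25th percentile offset and 0.01 after quantile normalization, and -0.46 to 0.31 with 1 array left out. The cause of these shifts was not tested. The replicate block left 7, 3 and 0 calls for Double knockout, Single knockout and their difference, with Blm lost (0.74, adjusted p = 0.0825) and Chek2 gained (0.78, adjusted p = 0.0353). The list counts under other scalings and without a Double knockout liver were added after seeing the data. Without a filter on low signals 10 of 17 of these probe sets passed for Double knockout against Normal on 430A, where 4277 of all 22626 did. For Single knockout 4 of 17 passed, where 5428 of all 22626 did. On 430 2.0 it was 8 of 18, where 1002 of all 45037 passed. Over all probe sets the genotype-matched control gave 2353 calls for Double knockout and 3281 for Single knockout against Normal, where all Normal livers gave 4353 and 5437. On 430 2.0 all calls numbered 3101, against 1002 without a filter and 1225 without the intensity trend. Between Double and Single knockout, compared on 430A alone, all calls numbered 6, against 8 without a filter and 1 without an offset. The number of arrays, and for Bard1 a signal near the offset on 430A and below the 40th percentile on every array of both designs, limit what could be measured.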
